A study of Cerrena unicolor with 12 samples.

Results

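This report describes 51 genes of *Cerrena unicolor* 87613 whose normalized counts were lower at cultivation day 10 (Cd-10) than at cultivation day 6 (Cd-6) in both carbon sources examined, fructose and glucose. They were chosen on the measured values. In each carbon source the lowest Cd-6 culture had to be at least 2 times the highest Cd-10 culture (deposited values plus 1), the mean over all 12 libraries had to be at least 50, and the gene had to carry an ID that starts with A and to stand outside the pathway and glutathione gene lists of the study. Of the 11281 genes in the table, 9217 have such an ID, 9125 of them lie outside the lists and 7736 of those reach the mean of 50. Among these 7736 genes, 266 (3.44%) met the separation in fructose, 121 (1.56%) met it in glucose and 51 (0.659%) met it in both, so the 51 genes make up 19.2% of those separated in fructose and 42.1% of those separated in glucose. Because the rule used all 12 libraries, each difference between Cd-10 and Cd-6 given for these genes is a description and carries no test.

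The libraries came from hyphae of this wild-type strain in 4 groups of 3 replicate cultures: fructose at Cd-10, fructose at Cd-6, glucose at Cd-10 and glucose at Cd-6. All cultures grew in potato dextrose medium with the named sugar as carbon source, shaken at 200 rpm and 30°C. The study chose Cd-6 as a period of high and Cd-10 as a period of low laccase activity. Its account of that choice does not mention fructose, and it gives no laccase activity for the fructose cultures. Each library is the bulk RNA of a mycelium, so that fewer active hyphae and less RNA per hypha cannot be told apart, and nothing in the labels assigns the libraries to batches.

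*C. unicolor* is a white rot fungus. Fungi of this kind degrade lignin with secreted oxidative enzymes, among them laccase, a copper-containing oxidase that takes electrons from phenolic compounds and passes them to oxygen. In shaken liquid culture the mycelium first grows on the sugar supplied and later runs short of nutrients, and many fungi alter secretion, nutrient uptake and recycling of cell material as the culture ages. None of the 51 IDs is paired with a name or product in the sources used here, and no role is given to any of them. Whether laccase genes are among them was not analysed here.

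The 12 libraries held 10279983 to 12126094 read pairs assigned to genes, and 10912 to 11102 genes had a value above 0. Over all genes, the first principal component held 42.9% of the variance and separated the Cd-10 libraries, at -45.0 to -35.0, from the Cd-6 libraries, at 22.3 to 50.8. Replicate 2 of glucose Cd-6 stood apart on the second component, which held 18.1%, at 62.6 against 13.2 and 32.0 for the other glucose Cd-6 libraries. Applied without that library, the same rule finds 83 genes in place of 51. Without any 1 of the other 11 libraries it finds 52 to 60. Because the rule compares the lowest with the highest culture, leaving out a library can only ease the separation.

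Values per culture below are normalized counts, rescaled to a common level over the 12 libraries and not corrected for gene length, so that they compare cultures within a gene. Cultures are listed in the order of replicates 1, 2 and 3. Over the 51 genes, the median of the group means was 177 in fructose at Cd-10 against 1075 in fructose at Cd-6, and 155 in glucose at Cd-10 against 837 in glucose at Cd-6. The mean over all 12 deposited columns reached from 77.3 to 30883, with a median of 692. It was above 10000 for 5 genes, between 1000 and 10000 for 15 and at most 1000 for 31. In 5 genes at least 1 Cd-10 library held fewer than 20 reads, namely A07924 (5 reads as the fewest), A01434, A01482, A02330 and A04402, and their folds rest on small counts.

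**Figure D1:**
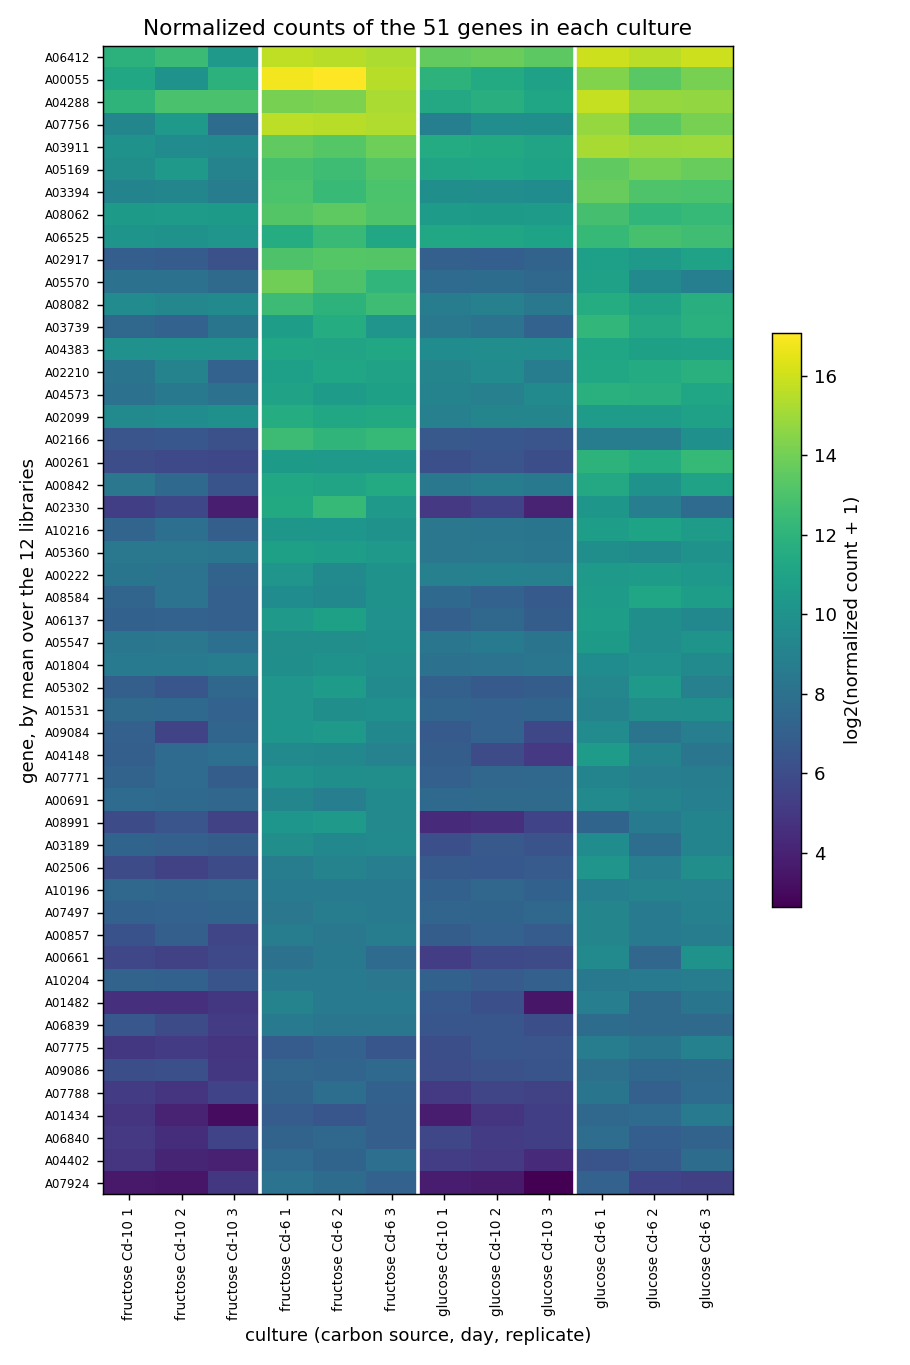
Log2(normalized count + 1) of the 51 genes (rows, ordered by mean over the libraries) in the 12 cultures (columns, by carbon source, day and replicate). Each gene is darker, that is lower, in the 3 Cd-10 columns than in the 3 Cd-6 columns of the same carbon source, as the selection requires, and the rows reach from means of 30883 to 77.3.

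The gene with the highest mean was A06412. It had 3783, 5641 and 1416 normalized counts in fructose at Cd-10, against 53103, 47704 and 40656 in fructose at Cd-6. In glucose it had 12263, 13907 and 11071 at Cd-10, against 63215, 49338 and 65189 at Cd-6. At Cd-10 the fructose cultures lay below the glucose cultures without overlap, while at Cd-6 the carbon sources overlapped. On the log2(value + 1) scale, the difference Cd-10 minus Cd-6 was -3.92 ± 0.43 in fructose and -2.24 ± 0.25 in glucose (SE from limma, n = 3 per group, here and for the genes that follow), or 15.1-fold and 4.74-fold lower at Cd-10.

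Among the 4 genes with the highest means, A00055 was the one whose day difference varied most between the carbon sources. In fructose it had 2509, 1050 and 3902 normalized counts at Cd-10, against 114913, 137777 and 47223 at Cd-6. The glucose cultures had 3934, 2859 and 1928 at Cd-10, against 20616, 10450 and 17949 at Cd-6. The Cd-10 cultures of the carbon sources overlapped, and at Cd-6 all fructose cultures lay above all glucose cultures. It was 42.0-fold lower at Cd-10 in fructose (log2 -5.39 ± 0.50) and 5.61-fold lower in glucose (-2.49 ± 0.34).

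A04288 showed the opposite arrangement. It had 4125, 7814 and 7786 normalized counts in fructose at Cd-10, against 17450, 18841 and 38698 in fructose at Cd-6. Its values in glucose were 2642, 3394 and 2307 at Cd-10, against 56551, 28399 and 27340 at Cd-6. The fructose cultures lay above the glucose cultures at Cd-10 without overlap, whereas at Cd-6 the groups overlapped. It was 3.72-fold lower at Cd-10 in fructose (log2 -1.90 ± 0.35) and 12.8-fold lower in glucose (-3.68 ± 0.32).

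A07756 combined a high level with a wide separation. It had 613, 1372 and 215 normalized counts in fructose at Cd-10, against 51302, 46869 and 41757 in fructose at Cd-6, a difference of -6.37 ± 0.52. In the glucose cultures the counts were 475, 831 and 918 at Cd-10, against 27978, 11205 and 17547 at Cd-6, a difference of -4.62 ± 0.37. The lowest Cd-6 culture was 30.4 times the highest Cd-10 culture in fructose and 12.2 times in glucose. Its fructose Cd-10 cultures spread over a wider range than its fructose Cd-6 cultures relative to their means, at 733 ± 588 and 46643 ± 4777 (SD, n = 3).

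A03911 differed between the days by almost the same factor in both carbon sources. It had 1047, 789 and 710 normalized counts in fructose at Cd-10, against 11990, 9915 and 14863 in fructose at Cd-6, which is 14.5-fold lower at Cd-10. In glucose it had 2896, 2674 and 2169 at Cd-10, against 37131, 30260 and 32435 at Cd-6, which is 12.9-fold lower. On both days the fructose cultures lay below the glucose cultures without overlap. Together with A06412, A00055, A04288 and A07756 it held 68.0% of the summed normalized counts of the 51 genes over the 12 libraries.

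**Figure D2:**
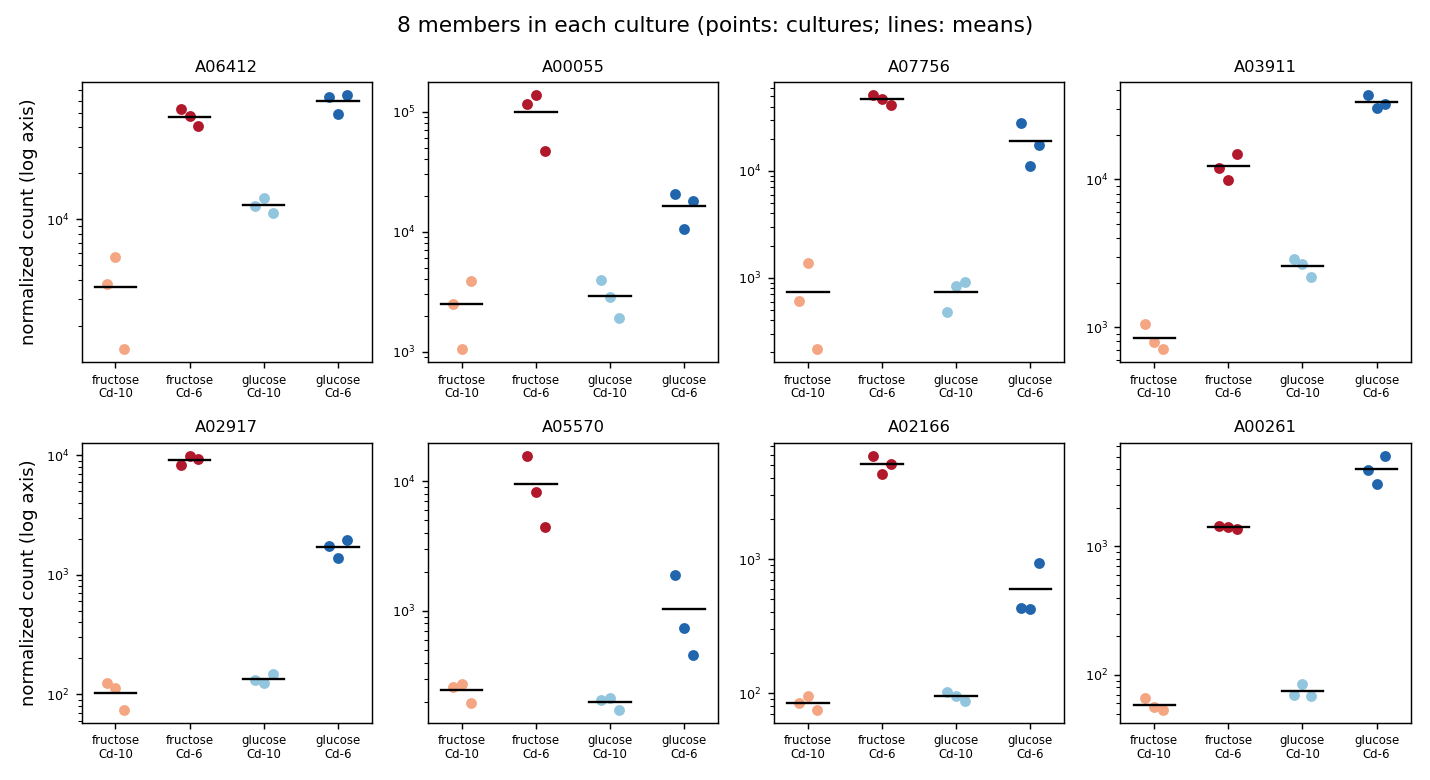
Normalized counts (log axis, its range set for each gene) of 8 of the genes in each culture, with fructose Cd-10, fructose Cd-6, glucose Cd-10 and glucose Cd-6 from left to right, points for cultures and lines for the means of 3. In each panel the Cd-10 points lie below the Cd-6 points of the same carbon source. In A02166 and A05570 the Cd-10 points of both carbon sources lie side by side while the Cd-6 points of fructose lie above those of glucose.

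A00261 had the widest separation when each gene is judged by the carbon source in which it was less separated. It had 66.3, 56.0 and 53.5 normalized counts in fructose at Cd-10, against 1451, 1411 and 1375 in fructose at Cd-6. Glucose cultures held 70.4, 85.0 and 69.0 at Cd-10, against 3946, 3073 and 5067 at Cd-6. Its fructose cultures were close to each other on each day, at 58.6 ± 6.79 and 1412 ± 38.2 (SD, n = 3). The lowest Cd-6 culture was 20.4 times the highest Cd-10 culture in fructose and 35.6 times in glucose. It was 23.9-fold lower at Cd-10 in fructose and 52.1-fold lower in glucose, the largest glucose fold among the 51 genes.

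A02917 had the largest fructose fold. It had 123, 113 and 73.9 normalized counts in fructose at Cd-10, against 8363, 9926 and 9335 in fructose at Cd-6, or 90.6-fold lower at Cd-10 (log2 -6.50 ± 0.20). The counts in glucose were 131, 124 and 148 at Cd-10, against 1736, 1382 and 1970 at Cd-6, or 12.4-fold lower (-3.63 ± 0.18). It was the only one of the 51 genes whose fructose and glucose cultures did not overlap on either day and lay in opposite order on the 2 days, with fructose lower at Cd-10 and higher at Cd-6. Of all genes tested, 3.60% showed an opposite order without overlap, so the 51 genes are not marked out by it.

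The genes at the edge of the rule show how the threshold of 2 divides neighbouring values. A01804 was just inside, with a separation of 2.00 in fructose and 2.25 in glucose, and A09084 was just inside with 4.08 and 2.00. These separations use the deposited values. On the rescaled counts listed here, A01804 falls slightly under 2 in fructose, so its membership depends on the scaling. Just outside were A01018, with a separation of 2.71 in fructose and 1.96 in glucose, and A07941, with 1.96 and 2.43. A01804 had 366, 405 and 420 normalized counts in fructose at Cd-10, against 902, 1022 and 830 at Cd-6, and in glucose 258, 281 and 321 at Cd-10, against 795, 993 and 722 at Cd-6. Its cultures lay close together within each group. A09084 had 132, 47.7 and 162 normalized counts in fructose at Cd-10, against 1172, 1316 and 657 at Cd-6, and in glucose 104, 143 and 53.3 at Cd-10, against 785, 289 and 440 at Cd-6. The cultures of A09084 spread more widely within each group, and on the log2 scale its mean difference came to 9.93-fold lower at Cd-10 in fructose and 4.95-fold lower in glucose.

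Over all 51 genes, the median log2 difference Cd-10 minus Cd-6 was -2.73 in fructose, or 6.65-fold lower at Cd-10, and -2.32 in glucose, or 5.00-fold lower. Over all genes fitted the medians were 0.00 in fructose (10060 genes) and -0.00 in glucose (10201 genes). The scaling within a carbon source places the typical gene near 0, so these medians are no independent background. The folds lay between 2.20 and 90.6 in fructose, with the middle 50% of the genes between 3.95 and 12.9, and between 2.38 and 52.1 in glucose, with the middle 50% between 3.41 and 8.41. At Cd-10, 38 genes were at least 4-fold lower in fructose and 34 in glucose, and 31 were so in both. At least 10-fold lower were 15 genes in fructose and 11 in glucose. These counts follow in part from the rule, which required a separation of at least 2 on the same contrast. The shares of all genes that were 4-fold or 10-fold lower were not computed. The SE of a log2 difference had a median of 0.24 in fructose and 0.25 in glucose and at most 0.54 and 0.75. Without replicate 2 of glucose Cd-6 the median glucose difference was -2.52.

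The difference was larger in fructose for 36 genes and larger in glucose for 15. In 34 genes the log2 differences in the carbon sources lay within 1 of each other, in 13 the fructose difference was larger by more than 1 and in 4 the glucose difference was (A04288 by 1.78, A04148 by 1.57, A08584 by 1.46 and A00261 by 1.12). The shares of all genes for these counts were not computed. Fructose also separated more of the 7736 genes than glucose did (3.44% against 1.56%). With libraries set to the same summed value, the median differences of the 51 genes were closer, at -2.62 in fructose and -2.525 in glucose. Across the 51 genes the differences in fructose and glucose, which share no libraries, had a Pearson r of 0.59. Genes are not independent replicates, and the r describes genes picked for a large difference in both. Whether the day difference of a gene depends on the carbon source was not tested, since the rule used both differences.

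**Figure D3:**
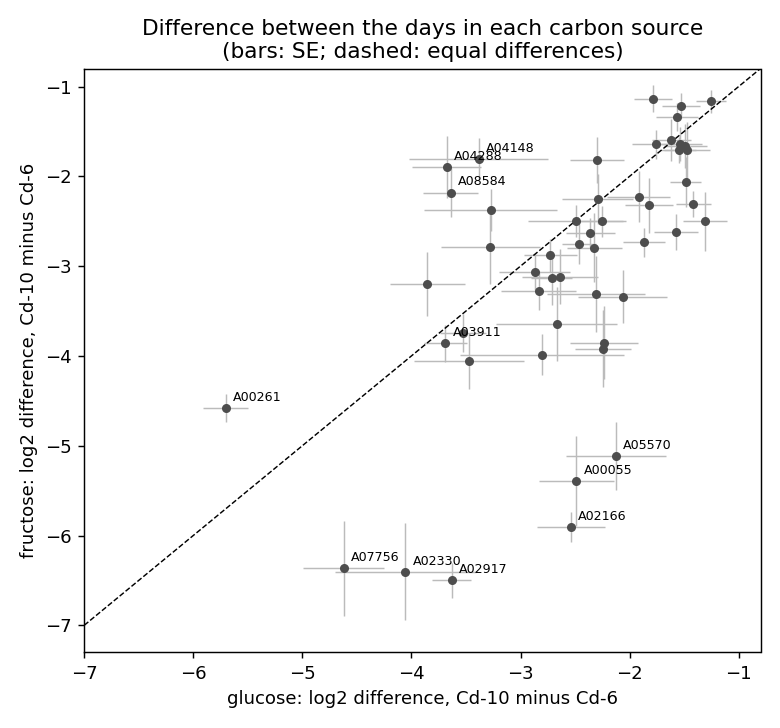
Log2 difference Cd-10 minus Cd-6 of each of the 51 genes in fructose (vertical axis) against glucose (horizontal axis), with SE bars from limma and a dashed line where the differences are equal. A02917, A02330, A07756, A02166, A00055 and A05570 lie below the line, with a larger difference in fructose, and A04288, A04148, A08584 and A00261 lie above it.

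The 2 genes with the largest excess of the fructose difference were A02166 and A05570. A02166 had 84.9, 94.3 and 74.8 normalized counts in fructose at Cd-10, against 5903, 4318 and 5154 in fructose at Cd-6, and it was 59.9-fold lower at Cd-10. In glucose it had 103, 94.7 and 86.7 at Cd-10, against 434, 426 and 928 at Cd-6, and it was 5.81-fold lower. At Cd-10 the carbon sources overlapped and at Cd-6 they did not. A05570 had 261, 274 and 196 normalized counts in fructose at Cd-10, against 15714, 8269 and 4448 in fructose at Cd-6, and it was 34.6-fold lower at Cd-10. In glucose it had 207, 212 and 172 at Cd-10, against 1899, 736 and 459 at Cd-6, and it was 4.36-fold lower. On each carbon source its Cd-6 cultures differed among themselves more than its Cd-10 cultures did.

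A04148 stood at the other end with A04288. It had 129, 202 and 238 normalized counts in fructose at Cd-10, against 750, 673 and 530 in fructose at Cd-6, and was 3.51-fold lower at Cd-10. In glucose it had 118, 62.4 and 31.3 at Cd-10, against 1544, 573 and 313 at Cd-6, and was 10.4-fold lower (log2 -3.38 ± 0.64). The replicates of both glucose groups spread widely, so that the glucose fold of this gene is among the less precise of the 51.

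The 51 genes together took up a small share of each library, and that share was lower at Cd-10. In fructose they held 0.2375% ± 0.0273 of the summed values at Cd-10, against 2.74% ± 0.471 at Cd-6 (SD, n = 3 each). In glucose they held 0.322% ± 0.0324 at Cd-10, against 2.48% ± 0.180 at Cd-6. The Cd-6 share was 11.5 times the Cd-10 share in fructose and 7.72 times in glucose. None of the 51 was among the 50 genes with the highest values in any Cd-10 library, whereas 3 or 4 were in each fructose Cd-6 library and 4 or 5 in each glucose Cd-6 library. Without A06412 the shares were 0.2045% in fructose at Cd-10, 2.34% in fructose at Cd-6, 0.2125% in glucose at Cd-10 and 1.88% in glucose at Cd-6.

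**Figure D4:**
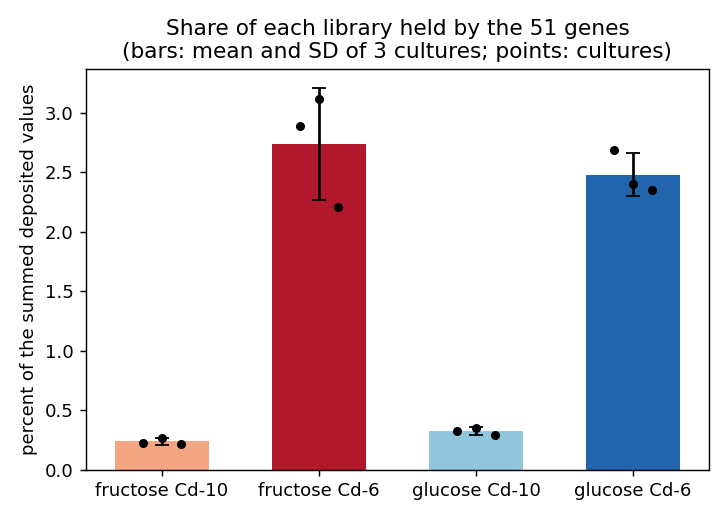
Percent of the summed deposited values of each library held by the 51 genes, with bars for the mean and SD of 3 cultures and points for the cultures. The Cd-10 bars stand at 0.2375% in fructose and 0.322% in glucose, against 2.74% and 2.48% for the Cd-6 bars.

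Whether the genes also differed between the carbon sources, over both days together, was tested, since the rule compared days only within a carbon source. The test was limma on log2(normalized count + 1) of all 12 libraries, with Benjamini-Hochberg adjustment over 10396 genes and a call at an adjusted p below 0.05. For a given difference between the days, the rule favours genes with little spread within a group. The p-values of selected genes may for that reason be too small. The median coefficient of variation of the 51 genes was above that of all genes in each group except glucose at Cd-10 (values below). That comparison uses the same libraries and does not match genes by their day difference. It therefore cannot show whether the p-values are too small. Of the 51 genes, 7 (13.7%) were higher in fructose and 11 (21.6%) were lower, and 33 did not pass. Over all genes tested, 3.6% were higher and 5.22% lower, and over the 7736 genes from which the 51 were taken 4.32% were higher and 6.08% lower. The median log2 difference between fructose and glucose, regardless of sign, was 0.58 in the 51 genes and 0.23 over all genes tested. With the count tests on recovered reads, edgeR called 8 of the 51 higher and 11 lower (3.4% and 5.97% of all genes), and DESeq2 called 12 higher and 13 lower (6.5% and 8.31%). Without replicate 1 of glucose Cd-6, limma called 13 of the 51 higher and 11 lower.

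The 7 genes higher in fructose were 1.35-fold to 3.44-fold higher on average over the days. A05570 was higher by 1.78 ± 0.33 on the log2 scale (limma, adjusted p = 0.0074) and A02166 by 1.51 ± 0.18 (adjusted p = 0.000985). In both, as the values per culture show, the carbon sources differed at Cd-6 and overlapped at Cd-10. A08991 was higher by 1.40 ± 0.32 (limma, adjusted p = 0.0198). It had 63.2, 85.0 and 42.8 normalized counts in fructose at Cd-10, against 19.97, 23.7 and 44.9 in glucose at Cd-10, and 1202, 1339 and 683 in fructose at Cd-6, against 153, 367 and 576 in glucose at Cd-6. Its call was lost without replicate 1 of fructose Cd-6 (limma, adjusted p = 0.0579) and without replicate 2 (adjusted p = 0.051). The others were A02917, A08082, A02099 and A05360. Of the 7, only A08082 and A02099 lay above the glucose cultures without overlap on both days. Of all genes, 13.8% lay so at Cd-10 and 16.4% at Cd-6, and the calls used these same values. A08082 had 781, 640 and 751 normalized counts in fructose at Cd-10, against 430, 480 and 340 in glucose at Cd-10, and 5897, 4075 and 6125 in fructose at Cd-6, against 3053, 1953 and 3459 in glucose at Cd-6.

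The 11 genes lower in fructose were 1.49-fold to 3.01-fold lower, and all 11 lay below the glucose cultures without overlap at Cd-10, 8 of them on both days. Of all genes, 15.0% lay so at Cd-10 and 15.8% at Cd-6. The share of all genes on both days was not computed for either direction. The calls used these same values, so the lack of overlap is not separate evidence. A07775 was lower by 1.59 on the log2 scale (SE 0.17, limma, adjusted p = 0.000658). It had 30.0, 36.3 and 28.2 normalized counts in fructose at Cd-10, against 66.6, 90.4 and 87.8 in glucose at Cd-10, and 114, 141 and 89.0 in fructose at Cd-6, against 430, 301 and 510 in glucose at Cd-6. The groups were apart on both days. A03911, given above, was lower by 1.53 (SE 0.14, limma, adjusted p = 0.000249). A06412 was lower by 1.16 (SE 0.27, adjusted p = 0.0231), and the carbon sources overlapped at Cd-6. The A06412 call was lost without replicate 1 of fructose Cd-6, replicate 1 of glucose Cd-10 or replicate 2 of glucose Cd-10, with adjusted p-values of 0.0503, 0.0504 and 0.0527. The other 8 were A05169, A06525, A00261, A04573, A02506, A00222, A10216 and A03394.

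Among the 4 genes with the highest means, A00055, A04288 and A07756 did not pass in limma. A00055 had a difference of 1.09 ± 0.35 (adjusted p = 0.0705). It passed in edgeR (adjusted p = 0.0498) and DESeq2 (adjusted p = 0.00428), and in limma without replicate 2 of fructose Cd-10 (adjusted p = 0.0257) or replicate 3 of fructose Cd-6 (adjusted p = 0.0345). A04288 had 0.30 ± 0.26 (adjusted p = 0.488) and A07756 had 0.53 ± 0.37 (adjusted p = 0.38). A04148, with 0.77 ± 0.37 (adjusted p = 0.199), passed in limma without replicate 1 of glucose Cd-6 (adjusted p = 0.0366).

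Taken by day, the differences between carbon sources are descriptions, because each day's values entered the rule. At Cd-10, 7 of the 51 genes were higher and 14 lower in fructose with no overlap between the cultures, where 13.8% and 15.0% of all genes were. At Cd-6, 14 were higher and 12 lower, where 16.4% and 15.8% of all genes were. The log2 differences fructose minus glucose lay between -1.99 (A06412) and 1.57 (A04148) at Cd-10 and between -1.83 (A07775) and 3.27 (A05570) at Cd-6. Regardless of sign, their median was 0.46 at Cd-10 and 0.72 at Cd-6, and over all genes tested 0.29 and 0.31. Differences above 2 occurred at Cd-6 only, in A05570, A02166, A00055, A02917 and A02330, which were 5.38-fold to 9.64-fold higher in fructose. At Cd-10 the same 5 genes lay between -0.41 and 0.29. No gene lay under -2 on either day.

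A02330 drew the fewest reads of these 5. It had 38.3, 52.9 and 13.6 normalized counts in fructose at Cd-10, against 32.3, 45.2 and 15.7 in glucose at Cd-10, and 2741, 5148 and 1317 in fructose at Cd-6, against 1257, 454 and 207 in glucose at Cd-6. The carbon sources lay within each other's range at Cd-10 and apart at Cd-6. The difference over both days, 1.26 ± 0.48, did not pass in limma (adjusted p = 0.113).

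**Figure D5:**
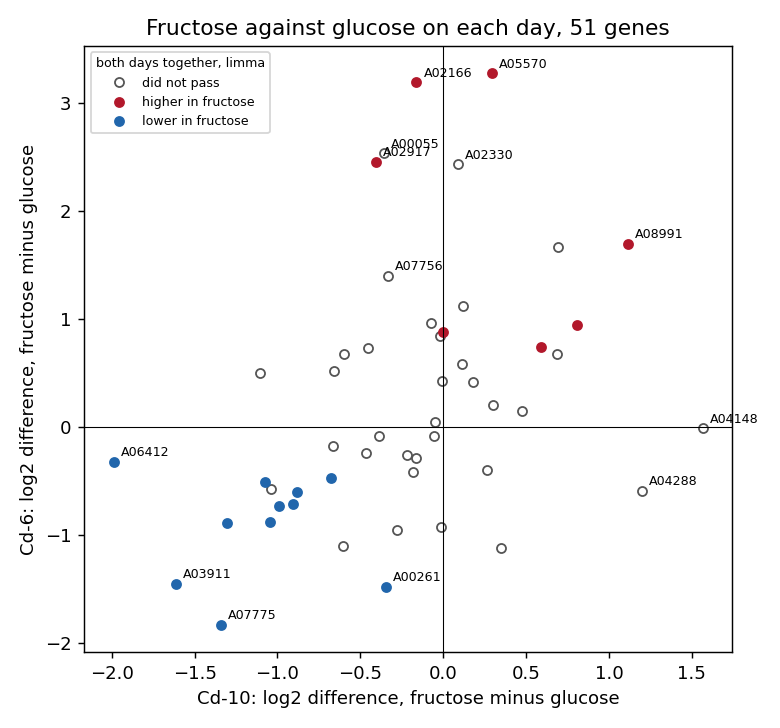
Log2 difference fructose minus glucose of each of the 51 genes at Cd-6 (vertical axis) against Cd-10 (horizontal axis), coloured by the limma call over both days together. All 11 genes lower in fructose (blue) lie at the lower left, below 0 on both axes, and A05570, A02166, A00055, A02917 and A02330 lie near the top, between 2.43 and 3.27 at Cd-6, with Cd-10 differences between -0.41 and 0.29.

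The spread among replicate cultures of the 51 genes was not the same in each group. The median coefficient of variation was 25.2% in fructose at Cd-10 and 16.0% in fructose at Cd-6, where over all genes tested it was 18.1% and 13.6%. In glucose it was 12.6% at Cd-10 and 26.1% at Cd-6, where over all genes it was 16.3% and 19.7%. Replicate 3 of fructose Cd-10 was the lowest of its group in 31 of the 51 genes, where it was so in 37.3% of all genes. Replicate 2 of glucose Cd-6 was the lowest in 26 (39.4% of all genes), and replicate 1 of that group was the highest in 28 (36.4%). Replicate 3 of glucose Cd-10 was the lowest of its group in 28 (39.5%), and replicate 1 of fructose Cd-6 was the lowest of its group in 6 (28.5%). Over the 1275 pairs of the 51 genes, the correlation of deviations from the group means had a median of 0.12, where it was 0.01 over all pairs of the 7736 genes. It was above 0.8 in 2.04% of the pairs, with A07756 and A07771 as the closest pair (r = 0.93 over 12 libraries), against 1.43% of all pairs.

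Gene numbers are all that the files give on position, and whether consecutive numbers are neighbours in the genome is not stated. A06839 and A06840 were the only consecutive pair. A06839 had 94.2, 63.2 and 34.0 normalized counts in fructose at Cd-10, against 379, 320 and 314 in fructose at Cd-6, and in glucose 90.3, 88.3 and 66.9 at Cd-10, against 216, 199 and 195 at Cd-6. A06840 had 32.1, 21.8 and 44.7 normalized counts in fructose at Cd-10, against 149, 178 and 130 in fructose at Cd-6, and in glucose 52.3, 35.5 and 38.7 at Cd-10, against 224, 122 and 150 at Cd-6. Both were 4.68-fold to 5.67-fold lower at Cd-10 in fructose and 2.47-fold to 3.78-fold lower in glucose. In all, 10 pairs of the 51 genes lay at most 20 numbers apart. The 51 are 0.559% of the A genes outside the lists, and no comparison with randomly placed numbers was made. A chain of 4 genes was formed by A07756, A07771, A07775 and A07788 and another of 3 by A10196, A10204 and A10216. The 4 genes of the longer chain did not share a pattern between carbon sources, since A07775 was lower in fructose on both days while A07756 was higher in fructose at Cd-6 without overlap. Of the genes numbered directly beside the 51, 88 could be compared in both carbon sources, and 38.6% of them were lower at Cd-10 in both, where 34.2% of all such genes were.

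The same separation was then looked up in the genes that the rule leaves out. It was met by 9 of the 93 genes of the study's lists and by 2 of the 2064 genes without an A number. Both totals include any genes with a mean under 50. The lists hold only genes that the study reported as different between the days. Its reported differences for the glutathione genes are close to those of the glucose cultures. The direction of the listed genes, above all in glucose, is therefore not independent evidence. Of the 11 glutathione genes, 3 met the separation, all annotated as glutathione S-transferases, enzymes that couple glutathione to reactive compounds (A04379, A09881 and A00358). All 11 were lower at Cd-10 without overlap in both carbon sources, where 10.6% of all genes tested were. The glucose part of that follows largely from the choice of the list. A04379 had 5556, 8555 and 3301 normalized counts in fructose at Cd-10, against 22629, 19152 and 35264 in fructose at Cd-6, and in glucose 5352, 6084 and 7808 at Cd-10, against 46602, 19297 and 44040 at Cd-6. It was 4.63-fold and 5.36-fold lower at Cd-10, which lies within the middle 50% of the 51 genes in both carbon sources. A09881 was 2.73-fold and 3.69-fold lower and A00358 2.98-fold and 3.20-fold, in fructose and in glucose.

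The amino acid biosynthesis list had 3 of 12 genes that met the separation (A06418, A07571 and A02716), carbon metabolism 3 of 29, starch and sucrose metabolism 2 of 14, pyruvate metabolism 1 of 13 and secondary metabolite biosynthesis, which overlaps the others, 5 of 50. These totals count the genes reported as different between the days, not whole pathways. Of the 7736 genes outside the lists, which were not chosen for a day difference, 0.659% met the separation. A09661, of the starch and sucrose list, had the largest fructose fold of the 9 listed genes. It had 95.3, 52.9 and 65.1 normalized counts in fructose at Cd-10, against 463, 859 and 499 in fructose at Cd-6, and in glucose 75.1, 87.2 and 103 at Cd-10, against 309.5, 478 and 307 at Cd-6. It was 8.39-fold lower at Cd-10 in fructose and 4.02-fold lower in glucose. In the citrate cycle, glyoxylate, cell cycle and meiosis lists no gene met it. The cell cycle list had 1 of 13 genes lower at Cd-10 without overlap in fructose (22.7% of all genes tested) and 11 of 13 in glucose (21.9%), and the meiosis list, some of whose genes are the same, 2 of 9 and 8 of 9. The high glucose counts follow largely from the choice of the lists, so the contrast with fructose is no test of the carbon source. The mirrored rule, with Cd-10 at least 2 times Cd-6, was met by 80 genes, against the 51 described here.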

How the data were processed

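RNA was sequenced from 12 cultures, 3 for each carbon source and day, and samples were grouped by their labels. Replicates were described as replicate cultures. The study aligned the reads with Hisat2 (version 2.0.5) and assigned them to genes with featureCounts (version 1.5.0-p3). Cufflinks is also named in the submitters' processing notes, without a role. What the authors deposited is a normalized signal per gene: a read count over a size factor, with 1 factor per library, set within each carbon source and not corrected for length. Divided by the value of 1 read (0.847 to 1.13), 100% of the values in all 12 libraries came out whole within 0.01, which gave back the reads. A low count thus rests on few reads.

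The selection rule was applied to the deposited values plus 1. For the values per culture, the libraries were rescaled by median-ratio factors over all 12. For the day differences, factors were taken within a carbon source. limma 3.58.1 (R 4.3.3; lmFit and eBayes with trend) was fitted to log2(value + 1) of genes with at least 10 in at least 3 libraries, and a fold on this scale understates the change of low genes. The rule used both days, so the day differences have no test, and fructose against glucose was tested over both days with 1 spread for the 4 groups (two-sided). The fit between the carbon sources was tested on simulated data. edgeR 4.0.16 and DESeq2 1.42.0 on recovered reads, other scalings, pseudocounts and filters, a replicate block and leave-one-out fits were the alternatives. Replicates differed beyond sampling noise, and none was counted as a copy.

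The 51 genes and the lists were chosen with earlier results of these data known. Named were the 4 genes with the highest mean, the 4 with the widest separation (the smaller of the carbon sources), the 2 on either side of the threshold, up to 3 higher and 3 lower in fructose, the 2 with the largest excess of the day difference in each carbon source, the longest run of consecutive numbers and the glutathione genes that meet the separation. Others were named after their values were seen. The RefSeq gene table at hand (7215 genes) matched 0 of the gene IDs, so no names or sequences are given. All columns were used. Python 3.11.15, numpy 2.4.6, pandas 2.3.3 and matplotlib 3.10.9 served for summaries and figures.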

Additional observations from a re-analysis of the deposited data

Results flagged for a closer look

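A02917 drew attention because its cultures lay apart in opposite directions on the 2 days. At Cd-6 all fructose cultures (8363, 9926 and 9335 normalized counts) lay above all glucose cultures (1736, 1382 and 1970), a log2 difference fructose minus glucose of 2.45. At Cd-10 all fructose cultures (123, 113 and 73.9) lay below all glucose cultures (131, 124 and 148), a log2 difference of -0.41. The Cd-10 groups were separated by a small gap, and the difference between the days in this contrast was not tested. Such opposite order without overlap was seen in 3.60% of all genes tested.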

How the results depend on the processing

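The number of genes follows the rule's threshold, with 154 genes at 1.5-fold and 21 at 3-fold, and the other settings gave 43 to 63. After rescaling over 12 libraries 49 genes met the rule, all of them among the 51, and at the same summed value per library 63 did, 46 of them among the 51. Leaving out 1 library, which can only ease the separation, gave 52 to 83, with 83 without replicate 2 of glucose Cd-6. Between carbon sources, DESeq2 called 12 genes higher in place of 7, and leaving out 1 library gave 5 to 13 higher and 8 to 12 lower. Values as deposited or at the same summed value gave 6 higher and 13 lower. With the replicate block the counts were 8 higher and 11 lower. Same-numbered cultures did not deviate together (18 pairs, r from -0.20 to 0.18, 2 above 0.1, 8 best matched), and the numbers were not taken as pairs. Of 336 values for 16 named genes under 21 settings, 325 kept their direction and their side of the threshold, 5 lost and 5 gained the call, and 1 turned round, A06839 without replicate 1 of fructose Cd-10, which passed in neither fit (log2 -0.0334 in place of 0.135, and -0.0334 to 0.3275 over all fits without 1 library). Shares without A06412 were 0.2045% (fructose Cd-10), 0.2125% (glucose Cd-10) and 1.88% (glucose Cd-6), and without 1 culture, a setting chosen after seeing the data, 0.222% to 0.248% (fructose Cd-10), 2.55% to 3.00% (fructose Cd-6), 0.308% to 0.340% (glucose Cd-10) and 2.38% to 2.54% (glucose Cd-6). The median day differences stayed between -2.78 and -2.46 in fructose and between -2.53 and -2.25 in glucose. With 3 cultures a group, genes under 20 reads have folds of low precision.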
